A study of Mus musculus with 2 samples.

Results

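The mouse globin genes and the globin chaperone gene were taken by symbol from the gene list of 2 single-cell libraries of spleen cells. Of 9 genes named, 8 had a row among the 26124 genes of the files: the adult β-globin genes Hbb-bs and Hbb-bt, the embryonic β-like genes Hbb-bh1 and Hbb-y, the adult α-globin genes Hba-a1 and Hba-a2, the embryonic α-like gene Hba-x, and the θ-like gene Hbq1a. The chaperone gene Ahsp was not analysed here. Another 2 globin genes, Hbb-bh2 and Hbq1b, had a row and are described beside them.

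Cells were drawn from spleens of mice aged 12 to 16 weeks, with no treatment. Red cells were lysed, and the remaining cells were pulled down with beads carrying an antibody to F4/80, a macrophage surface protein. The wild-type-labelled library came from a control mouse that was homozygous for Hbatm1Paz and heterozygous for Hbbtm1Tow, with 1 copy of the human transgene Tg(HBA-HBBs)41Paz (-/-, +/-, Tg/0). The SCD-labelled library (sickle cell disease) came from a mouse homozygous for all 3 (-/-, -/-, Tg/Tg). Both mice thus carried the disrupted α-globin allele and the transgene, which encodes human α-globin and sickle β-globin. The gene list had no row for a human globin gene, so the transgene was not counted under its own name. Since each condition has 1 library, conditions could not be tested against each other, and every interval below is a 95% interval that covers counting error only.

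Hemoglobin is a tetramer of α-type and β-type chains, each holding a heme. In the mouse the β-type genes stand in 1 cluster and the α-type genes in another, and in each cluster the embryonic genes are used first in development and the adult genes later. Erythroblasts in the spleen mature around macrophages of erythroblastic islands, and their transcriptome is taken over more and more by globin mRNA until the reticulocyte stage. Red pulp macrophages take up aged red cells.

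By GENCODE M21 on GRCm38, the β-type members lie on the minus strand of chromosome 7, Hbb-bt at chr7:103812524-103813996, Hbb-bs at chr7:103826534-103828096, Hbb-bh1 at chr7:103841637-103843164 and Hbb-y at chr7:103851749-103853216. The α-type members lie on the plus strand of chromosome 11, Hba-x at chr11:32276400-32278116, Hba-a1 at chr11:32283511-32284465, Hba-a2 at chr11:32296489-32297298 and Hbq1a at chr11:32300069-32300873. Promoter windows of 7 members, from 250 bases before to 50 bases after the start site, were present in the RefSeq table for GRCm38.p6. For the 4 genes printed below, these start sites lie inside the GENCODE spans, so the printed bases overlap those spans. The 150 bases before the start site are printed for the 4 genes on which the results turn, 5′ to 3′ on the gene's own strand. Capitals mark the CCAAT box (CCAAT), the TATA box (ATATAA) and the short (CCACCC) or long (CCACACCC) form of the CACCC box, on either strand. The short form is not contained in the long one.
Hbb-bs, chr7:103827929-103828078, minus strand: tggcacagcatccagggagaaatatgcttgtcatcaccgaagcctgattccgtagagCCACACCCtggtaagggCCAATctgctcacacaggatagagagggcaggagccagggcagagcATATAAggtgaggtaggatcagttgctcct
Hbb-bt, chr7:103813924-103814073, minus strand: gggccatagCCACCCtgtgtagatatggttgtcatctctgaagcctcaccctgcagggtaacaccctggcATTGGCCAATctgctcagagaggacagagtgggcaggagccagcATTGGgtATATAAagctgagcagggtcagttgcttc
Hba-a1, chr11:32283522-32283671, plus strand: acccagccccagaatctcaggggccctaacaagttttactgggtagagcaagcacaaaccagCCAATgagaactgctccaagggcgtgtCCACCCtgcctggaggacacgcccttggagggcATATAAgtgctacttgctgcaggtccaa
Hba-x, chr11:32276450-32276599, plus strand: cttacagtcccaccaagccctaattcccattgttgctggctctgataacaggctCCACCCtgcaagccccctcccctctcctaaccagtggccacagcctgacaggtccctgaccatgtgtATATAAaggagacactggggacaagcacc

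The 3 adult windows printed held CCAAT and ATATAA, and Hba-x held ATATAA without CCAAT. Among 32851 promoters of the table, 24.5% held CCAAT, 5.35% ATATAA and 19.7% CCACCC in the same 150 bases. CCACACCC was found in 2.18% of them and, among the members with a window, in Hbb-bs and in no other. The full windows of Hba-a1 and Hba-a2, which reach beyond the 150 bases, share a run of 297 bases, whereas the longest run shared by those of Hbb-bs and Hbb-bt was 14 bases.

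The transcripts of the adult pairs are near copies. Of the 538 stretches of 91 bases (the length of the cDNA read) in the longest Hbb-bs transcript, 340 (63.2%) also occur in Hbb-bt. Of the 609 stretches in the longest Hba-a1 transcript, 357 (58.6%) also occur in Hba-a2. Among the 210 stretches nearest the 3′ end, where reads are counted, 51 of Hbb-bs and 119 of Hba-a1 were shared with the other gene of the pair. No such stretch was shared between any other members. The split of reads within each adult pair is therefore uncertain. Sums over a pair do not depend on the split, but would depend on any loss of reads from shared stretches. Such a loss was not tested, and it would also touch the ratio of β to α. UMIs (unique molecular identifiers) count molecules by a tag near the 3′ end and were not divided by transcript length, since a molecule gives 1 UMI whatever its length.

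The libraries held 24144 and 15442 barcodes, wild-type first here and below, with 145953464 and 73986356 UMIs. With 500 to 5000 genes and limits on mitochondrial and ribosomal-protein UMIs, 19418 and 12279 cells were kept, at medians of 4116 and 4571 UMIs. The libraries shared 107 barcodes. Of 25 clusters made without the globin genes, 2 were erythroid-like, 6 held erythroid and red pulp macrophage markers (EBI-like, for erythroblastic island), 3 held macrophage markers alone (RPM-like) and 5 stayed unnamed. Cells marked as doublets made up 59.9% and 68.2% of the EBI-like cluster led by Thbs1. They made up 24.5% and 61.1% of that led by Egfl7, and 7.77% and 39.2% of that led by Oas1e, Hspa1b and Slfn14. The other EBI-like clusters held at most 12.5%. Whether EBI-like cells were doublets of erythroid cells and macrophages was not tested. Free RNA was read in the main B lymphocyte-like cluster (463 and 1717 cells), led by Ebf1, Cd79a and Pax5, which should not make globin.

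The targeted genes went against the labels. Hbb-bs, which the SCD genotype should lack on both chromosomes, gave 8083 UMIs in the wild-type-labelled library and 1324388 in the SCD-labelled library. The highest count in a single barcode was 15 in the first and 2509 in the second. Hbb-bt gave 12843 and 223917 UMIs. Hba-a1, disrupted in both mice, gave 1541337 and 425533 UMIs, and Hba-a2 26994 and 9095. The sources used here do not say whether the disrupted alleles still carry the counted 3′ ends, nor whether reads of the human transgene could be counted on the mouse genes. A sample exchange was not tested, and the samples are named by their labels throughout.

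Erythroid-like cells made up 16.3% (3168) of kept cells in the wild-type-labelled library and 2.74% (336) in the SCD-labelled library, after a red cell lysis and an F4/80 enrichment that can both set these shares. They comprised a cluster led by Hemgn, Klf1 and Aqp1 (2317 and 204 cells), here called the Hemgn cluster, and a cluster led by Xpo7, Sowaha and Tmcc2 (851 and 132 cells), the Xpo7 cluster. Erythroid markers stood at medians of 45.7 and 57.3 times the B cell reference in these 2 clusters. The clusters were named by erythroid markers raised over all other clusters, so these values are no independent evidence. Macrophage markers were at 2.97 and 3.97 times the reference, so the Xpo7 cluster lay just under the limit of 4 above which it would have been called EBI-like.

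Hbb-bs in erythroid-like cells stood at 156 (151 to 161) UMIs per 1e+06 UMIs (CPM) in the wild-type-labelled library, and at 63548 (63216 to 63882) CPM in the SCD-labelled library. Between the libraries, SCD over wild-type, the log2 ratio was 8.67 (8.62 to 8.72). Its neighbour Hbb-bt counted 262 and 19759 CPM, with a log2 ratio of 6.24 (6.20 to 6.28). Both adult β-globin genes were thus far higher in the SCD-labelled library, and single cells overlapped little. Single erythroid-like cells held 0 to 15 Hbb-bs UMIs with a median of 1 in the first library, and 3 to 1592 with a median of 371 in the second.

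The adult α-globin genes differed far less. Hba-a1 was at 29642 (29573 to 29712) and 34173 (33930 to 34418) CPM, a log2 ratio of 0.21 (0.19 to 0.22). Single cells held 0 to 1317 Hba-a1 UMIs with a median of 184 in the wild-type-labelled library, and 1 to 948 with a median of 193 in the SCD-labelled library, so the ranges overlapped almost whole. The sign of the Hba-a1 ratio depended on how the cells were chosen: it was 0.15 in the Hemgn cluster, -0.0028 in the Xpo7 cluster, -0.10 with each library clustered on its own and -0.18 in cells picked by marker UMIs without clusters. Hba-a2 reached 531 and 853 CPM, with a log2 ratio of 0.68 (0.61 to 0.75).

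The embryonic and θ-like genes were counted at low levels in both libraries. Hbb-bh1 was at 20.3 (18.5 to 22.2) and 49.0 (40.2 to 59.2) CPM in erythroid-like cells, a log2 ratio of 1.27 (0.96 to 1.58). Hbb-y was at 2.38 (1.80 to 3.09) and 4.54 (2.18 to 8.34) CPM, from 56 and 10 UMIs, and a difference was not detectable at this depth. Hba-x was at 34.5 (32.2 to 37.0) and 47.6 (39.0 to 57.7) CPM. Hbq1a, whose chain is not known to form part of normal hemoglobin, was at 13.1 (11.6 to 14.6) and 19.5 (14.1 to 26.3) CPM. Hbb-bh2 gave 18 and 3 UMIs in the whole libraries, and Hbq1b gave 0 in both.

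Of the 7 members with at least 100 UMIs in erythroid-like cells, 3 (Hbb-bs, Hbb-bt and Hbb-bh1) were at least 2-fold higher in the SCD-labelled library and 0 were at least 2-fold lower. For Hbb-bh1 this depended on the cells, since by the levels given below it was under 2-fold higher in the Hemgn cluster alone. Among all 9687 genes with that many UMIs, 1.48% were at least 2-fold higher and 6.03% at least 2-fold lower, with a median log2 ratio of -0.11. These are descriptions of 2 libraries, in which condition and library cannot be told apart.

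Lists of other genes of red cell formation were read against the shares over all genes, 1.48% higher and 6.03% lower, at which few genes of any such list would pass. Of the 8 genes of heme synthesis 0 passed 2-fold in either direction (median log2 ratio 0.07, against -0.11 over all genes), which is near that background. Alas2, which makes the first step of heme synthesis in erythroid cells, was at 1788 and 1957 CPM, and Fech, which inserts the iron, at 1823 and 2019 CPM. Of 7 genes of iron and heme supply, 0 passed 2-fold (median 0.01). Tfrc, the transferrin receptor, was at 2712 and 2434 CPM, and Slc25a37, which carries iron into mitochondria, at 3616 and 3888 CPM.
Among 11 transcription factors of the globin loci, 0 were higher and 1 was lower by 2-fold (median 0.07). The exception was Myb, a factor of early progenitors, at 5.62 and 1.81 CPM from 132 and 4 UMIs. Klf1, which activates adult β-globin, was at 608 CPM in both libraries, Gata1 at 174 and 180 CPM, and Bcl11a, which represses embryonic globins, at 97.5 and 132 CPM. None of the 3 genes of free α-globin and heme balance passed 2-fold (median 0.04). They include Eif2ak1, the heme-regulated kinase of translation, at 363 and 426 CPM, and Ube2o, which removes free α-globin, at 554 and 521 CPM. Of 9 membrane and skeleton genes, 0 passed 2-fold (median 0.28), with Slc4a1, the band 3 anion exchanger, at 4442 and 4707 CPM.

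**Figure D1:**
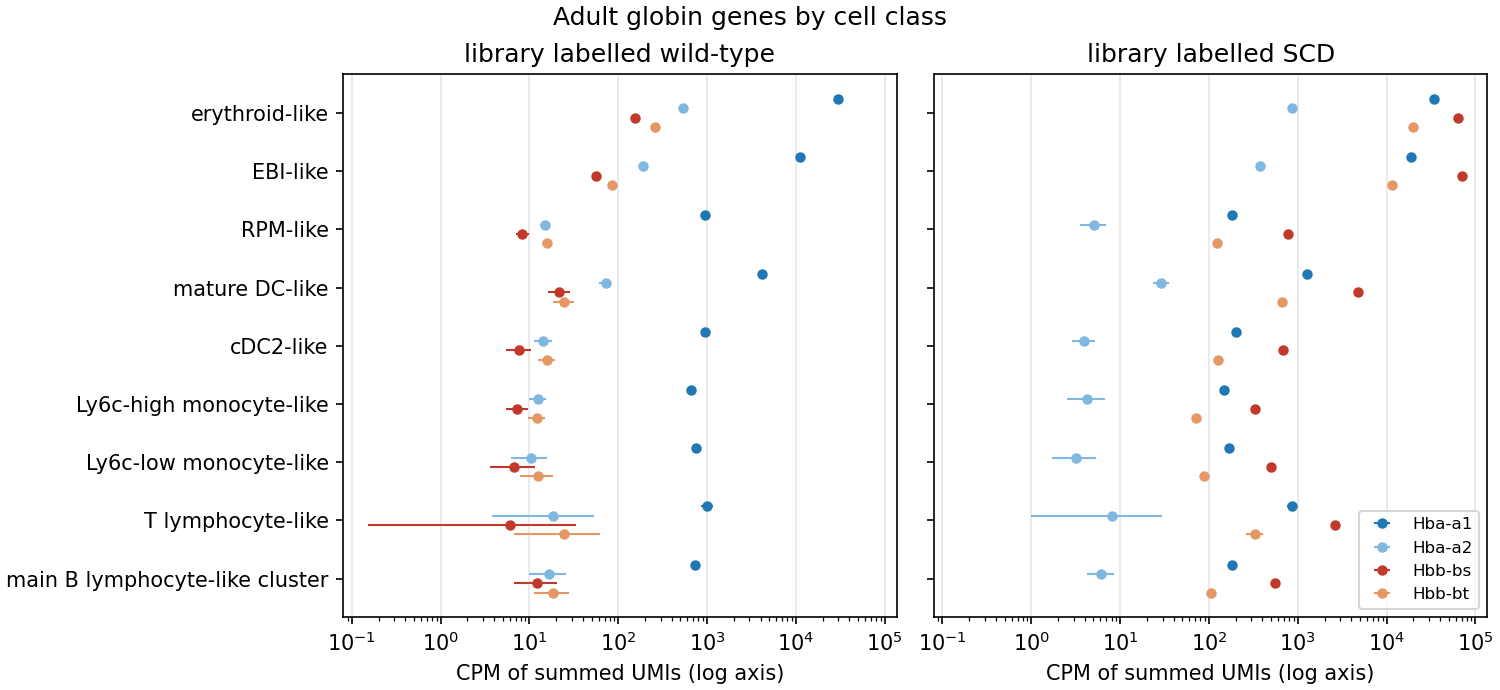
Level of the 4 adult globin genes in 8 cell classes and the B cell reference, as CPM of summed UMIs on a log axis, 1 panel per library, with points for sums over cells and bars for 95% exact Poisson intervals. In the wild-type-labelled library Hba-a1 stands above the other 3 genes in every class shown, and in the SCD-labelled library Hbb-bs stands above Hba-a1 in every class shown.

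Across the classes, both libraries placed erythroid-like and EBI-like cells above all others, as the plot of levels by class shows. Within the wild-type-labelled library, Hba-a1 fell from 29642 CPM in erythroid-like cells to 11217 in EBI-like, 5217 in unnamed, 4099 in mature DC-like and 4042 in neutrophil-like cells. The last 2 had overlapping intervals. B lymphocyte-like, T lymphocyte-like, RPM-like and cDC2-like cells followed between 1048 and 937 CPM, each overlapping its neighbour, and the monocyte classes came last at 755 and 659 CPM. Hbb-bs in that library was at 156 CPM in erythroid-like cells, at 55.5 CPM in EBI-like cells and between 26.0 and 6.07 CPM in the other 9 classes, where all neighbours in the order overlapped.
In the SCD-labelled library, Hbb-bs was at 70984 (70710 to 71260) CPM in EBI-like cells and at 63548 CPM in erythroid-like cells, an order that Hba-a1 did not share (18919 and 34173 CPM). Here 631 of the 804 EBI-like cells belonged to 1 cluster led by Adamdec1 and Tent5c, which held 16 cells of the other library, so EBI-like cells were not compared between libraries. The other classes ran from 13580 CPM in unnamed cells down to 327 CPM in Ly6c-high monocyte-like cells.

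Against the B cell reference of the same library, members were higher in erythroid-like cells. In the wild-type-labelled library, 7 of 7 members with at least 100 UMIs were at least 2-fold above the reference, where 21.1% of 9780 genes were at least 2-fold higher and 23.8% at least 2-fold lower. All of these but Hba-a1 met the minimum through the erythroid-like cells, with 0 to 21 UMIs in the reference, so the count gives no support. Hba-a1 was 40.7 (38.02 to 43.6) times higher, Hba-a2 32.2 (20.6 to 53.6), Hbb-bs 12.8 (7.64 to 23.5), Hbb-bt 14.4 (9.40 to 23.3) and Hba-x 3.06 (1.78 to 5.77) times higher. Hbb-bh1 and Hbq1a had 0 UMIs in the reference and were at least 7.78-fold and at least 5.02-fold higher, taking 3 UMIs over its cells as the floor. Within the SCD-labelled library, 6 of 6 members were at least 2-fold above it, against 14.3% of 8260 genes, while 35.6% were at least 2-fold lower. Here Hbb-bh1, Hba-x and Hba-a2 met the minimum through the erythroid-like cells, with 5, 4 and 36 UMIs in the reference, and this count gives no support either. Hba-a1 was 186 (175 to 198), Hbb-bs 115 (111 to 119) and Hbb-bt 189 (175 to 205) times higher. The folds depended on the scaling, since with scran size factors Hba-a1 was 96.2 and 692 times higher in the wild-type-labelled and the SCD-labelled library.
The erythroid gene lists were compared with the same reference. All 8 genes of heme synthesis and all 9 of the membrane were at least 2-fold higher in both libraries, as were 6 of 7 iron and heme supply genes and 7 of 11 transcription factors. Another 2 transcription factors, Bcl11a and Myb, were at least 2-fold lower in both, with log2 ratios of -3.33 and -2.96 in the wild-type-labelled and -3.08 and -4.04 in the SCD-labelled library. Of the 38 genes on these lists, 9 were also markers that named the clusters, so these counts describe the clusters and are no independent evidence.

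RPM-like cells held far fewer globin UMIs than erythroid-like cells, nearer to the B cell reference. For Hba-a1, 947 and 182 CPM in RPM-like cells stood against 729 and 184 CPM in the reference, ratios of 1.30 (1.21 to 1.39) and 0.993 (0.916 to 1.08). Hbb-bs was at 785 against 552 CPM in the SCD-labelled library, a ratio of 1.42 (1.36 to 1.48), and at 8.28 against 12.1 CPM in the wild-type-labelled library, 0.682 (0.393 to 1.28). After thinning every cell to 1000 UMIs and leaving out shallower ones, Hba-a1 was found in 53.8% (52.3 to 55.4%) of RPM-like cells and 43.3% (38.7 to 47.9%) of reference cells in the wild-type-labelled library, and in 12.4% (10.8 to 14.2%) and 11.0% (9.53 to 12.6%) in the SCD-labelled library. Hbb-bs was found in 38.3% (35.8 to 40.8%) of RPM-like and 29.8% of reference cells of the SCD-labelled library. Median depths were 2138 and 4125 UMIs in RPM-like cells and 2072 UMIs in the reference of the wild-type-labelled library. The RPM-like cells of the 2 libraries also lay in different clusters, 1570 of 1621 cells of the SCD-labelled library in a cluster led by Rgs1, Adamdec1 and Cpne4.
In erythroid-like cells thinned the same way, Hba-a1 was found in 99.7% and 99.4% of cells. Hbb-bs was found in 16.5% (15.2 to 17.8%) in the wild-type-labelled library, against 1.74% (0.754 to 3.40%) in the reference, and in 99.7% (98.4 to 99.99%) in the SCD-labelled library, against 29.8% (27.6 to 32.0%). Without thinning, Hbb-bs was found in 59.1% and 100% of erythroid-like cells, at median depths of 6103 and 5110 UMIs, and in 2.81% and 62.5% of reference cells. Thinning left out 1032 and 281 shallower cells.

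The median adult globin share of single erythroid-like cells was larger in the SCD-labelled library. In EBI-like cells, which lay largely in different clusters of the 2 libraries, the median was 0.498% and 10.9%. Over all kept cells the median was 0.153% and 0.0488%, in RPM-like cells 0.0756% and 0.0552%, and in the reference 0.0524% and 0.0428%. Shares of summed UMIs went the other way in these last 3 groups, at 1.13% and 1.61%, 0.0986% and 0.109%, and 0.0776% and 0.0847%. The 4 adult genes gave a median of 3.18% of the UMIs of an erythroid-like cell in the wild-type-labelled library (lowest 0, highest 23.8%) and 14.4% in the SCD-labelled library (lowest 0.347%, highest 48.2%). The share was higher in the Xpo7 cluster than in the Hemgn cluster in both libraries, with medians of 6.28% against 2.43% and of 25.3% against 9.17%. The Xpo7 cluster also had fewer UMIs per cell (medians of 2821 against 7985, and 2927 against 7104) and less of the proliferation gene Mki67 (489 against 2814 CPM, and 444 against 3628 CPM), a gene named after its values were seen. Hba-a1 per cell had medians of 185 UMIs in the Xpo7 and 184 in the Hemgn cluster of the wild-type-labelled library, and of 173.5 and 209.5 in those of the SCD-labelled library.

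**Figure D2:**
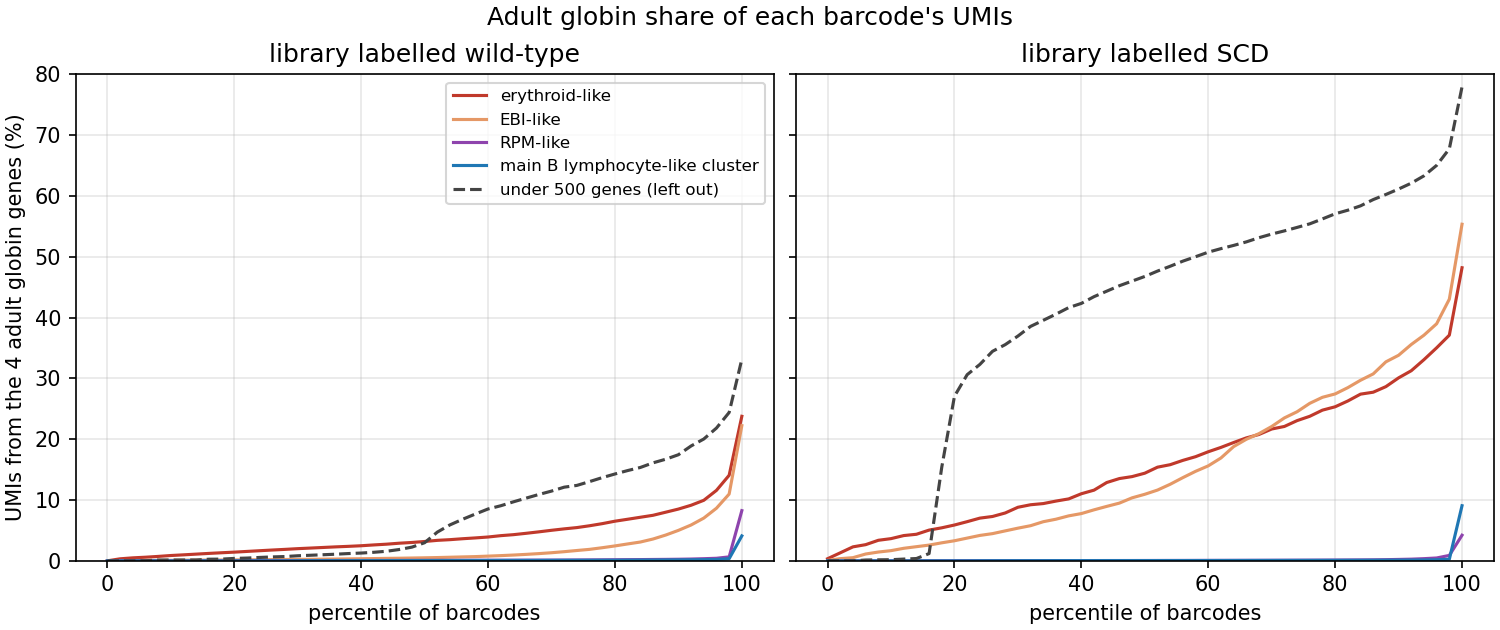
Share of each barcode's UMIs that came from the 4 adult globin genes (%, y axis), ordered by percentile of barcodes (x axis), for 4 groups of kept cells (solid lines) and for barcodes left out for having under 500 genes (dashed), 1 panel per library. The dashed line has its median at 46.8% in the SCD-labelled library and at 2.98% in the wild-type-labelled library, and the B lymphocyte-like and RPM-like lines lie near 0.

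The ratio between chains set the libraries apart most plainly. Adult β UMIs per adult α UMI in erythroid-like cells were 0.0138 (0.0136 to 0.0141) in the wild-type-labelled library, from 9818 and 709118 UMIs, and 2.38 (2.36 to 2.40) in the SCD-labelled library, from 183611 and 77198. Between clusters with at least 20 cells and 1000 adult globin UMIs the ratio ran from 0.00434 to 0.0416 over 21 clusters of the first library and from 2.07 to 5.69 over 19 clusters of the second, so the libraries did not overlap in any cluster. Within single cells with at least 20 adult globin UMIs, β made up a median of 1.25% of adult globin in erythroid-like cells of the wild-type-labelled library (3062 cells, 0 to 15.6%) and 72.4% in those of the SCD-labelled library (335 cells, 16.5 to 97.5%). The SD of this share over cells was 11.9 percentage points in the SCD-labelled library, where counting alone would give 2.18, and 1.55 against 0.969 in the wild-type-labelled library.

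Chain ratios also moved along the erythroid clusters, and in opposite directions. From the Hemgn to the Xpo7 cluster β per α went from 2.07 to 2.98 in the SCD-labelled library and from 0.0154 to 0.00934 in the wild-type-labelled library. Of the Hemgn cluster 20.9% and 22.5% of cells were marked as doublets, and of the Xpo7 cluster 0.940% and 0.758%. With marked doublets removed and the cells clustered anew, the erythroid-like ratio was 0.0157 and 2.00. The erythroid-like class then held 1864 and 165 cells, against 3168 and 336. An effect of doublets cannot be told apart here from one of which cells fell in the class. Hbb-bs went from 44775 to 140503 CPM between these clusters in the SCD-labelled library, Hbb-bt from 14952 to 39462 and Hba-a1 from 28151 to 58859. Since cells of the Xpo7 cluster held fewer UMIs in all, CPM there is raised for the same count. Per cell of that library, the median went from 331 to 422 UMIs for Hbb-bs and from 209.5 to 173.5 for Hba-a1. Within the wild-type-labelled library Hba-a1 went from 25366 to 58973 CPM, Hbb-bs from 141 to 256 and Hbb-bt from 256 to 304. The intervals of Hba-a1 in the Xpo7 cluster overlapped between the libraries, while Hbb-bs there differed by a log2 ratio of 9.10.

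Within the β pair, Hbb-bs exceeded Hbb-bt in erythroid-like cells of the SCD-labelled library and fell short of it in those of the wild-type-labelled library. UMIs of Hbb-bs per UMI of Hbb-bt in erythroid-like cells were 3.22 (3.18 to 3.25) in the former and 0.595 (0.571 to 0.620) in the latter. In the SCD-labelled library the ratio was lowest in the Hemgn cluster at 2.99 (2.95 to 3.04), followed by the Xpo7 cluster at 3.56 (3.50 to 3.62), and stood at 7.04 (6.95 to 7.12) in the EBI-like cluster led by Adamdec1 and at 7.24 (6.92 to 7.57), the highest, in mature DC-like cells. These 2 intervals overlapped. Other EBI-like clusters with at least 20 cells stood between 3.63 and 4.71. Of these, all but that led by Oas1e and Gm47985 had at least 39.2% of their cells marked as doublets. Per cell, Hbb-bt made up a median of 26.8% of β UMIs in the Hemgn cluster, 22.4% in the Xpo7 cluster and 12.1% in EBI-like cells. In the wild-type-labelled library the ratio likewise rose from 0.552 (0.527 to 0.577) to 0.843 (0.765 to 0.929) between the erythroid-like clusters. It stood at 1.66 (1.41 to 1.97) in the EBI-like cluster led by Tent5c and Apol11b. Other EBI-like clusters of that library with at least 20 cells stood between 0.394 and 0.679. The highest ratio, 2.22 (1.66 to 2.99), was in an unnamed cluster led by Cxcl11, Retnla and Cxcl9.
Within the α pair, Hba-a1 exceeded Hba-a2 by 55.8 (54.8 to 56.8) times in the wild-type-labelled library and by 40.1 (38.3 to 42.0) times in the SCD-labelled library. This ratio was alike in both erythroid-like clusters, 55.7 and 56.1 in the first library and 41.1 and 38.2 in the second. Since the split of reads inside each pair is uncertain, these ratios describe counts and not transcripts.

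**Figure D3:**
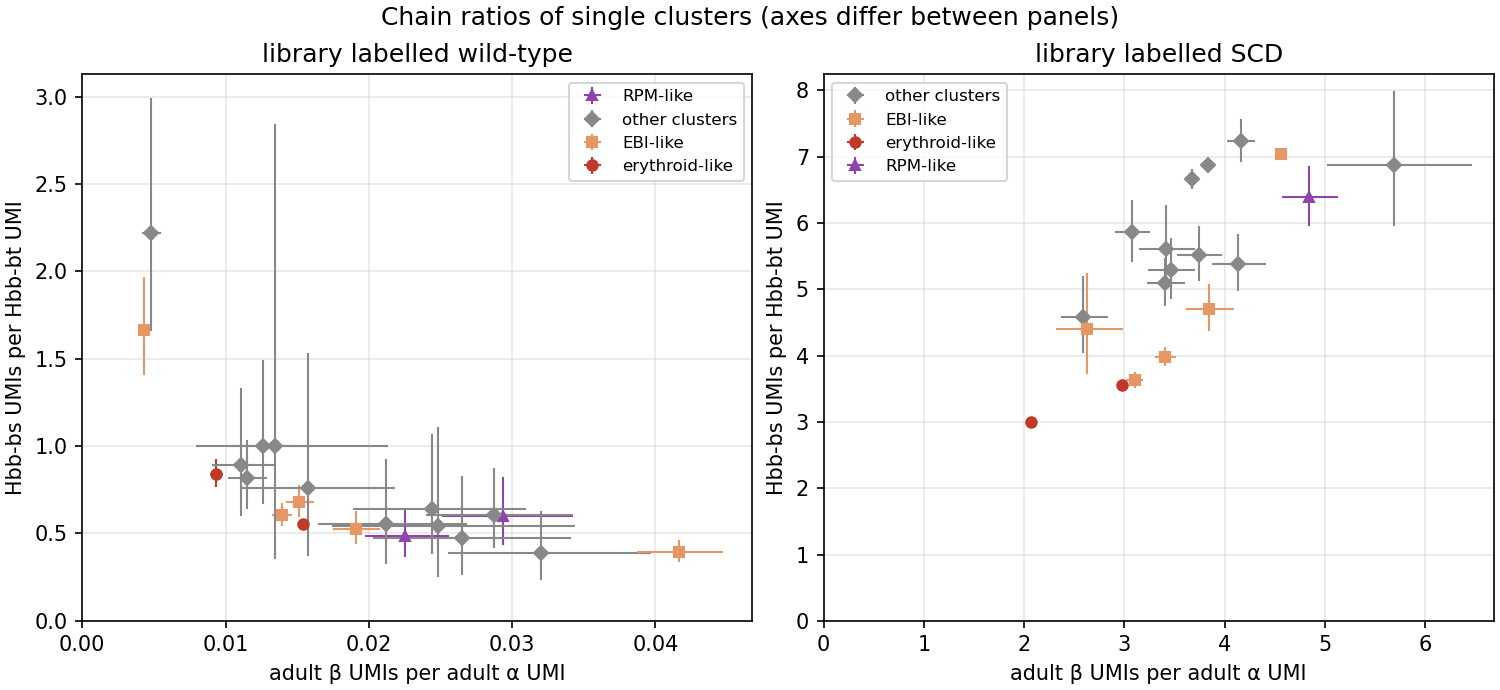
Adult β UMIs per adult α UMI (x axis) against Hbb-bs UMIs per Hbb-bt UMI (y axis), each point a cluster with at least 20 cells and 1000 adult globin UMIs in that library, bars 95% exact intervals. The panels have different axes, since β per α lies between 0.00434 and 0.0416 in the wild-type-labelled library and between 2.07 and 5.69 in the SCD-labelled library, where the erythroid-like Hemgn cluster is lowest on both axes.

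Chain ratios outside the erythroid-like clusters are given as values, and where those UMIs came from was not tested. Within the SCD-labelled library, β per α was 3.46 (3.24 to 3.71) in the B cell reference and 4.85 (4.58 to 5.14) in RPM-like cells, against 2.38 in erythroid-like and 4.27 in EBI-like cells. Hbb-bs per Hbb-bt was 5.28 (4.85 to 5.77) in the reference and 6.43 (5.99 to 6.90) in RPM-like cells, above the 3.22 of erythroid-like cells too. Within the wild-type-labelled library β per α was 0.0407 (0.0282 to 0.0571) in the reference, from 35 β UMIs, and 0.0250 in RPM-like cells, against 0.0138 in erythroid-like and 0.0123 in EBI-like cells. In both libraries β per α was thus higher in the reference and in RPM-like cells than in erythroid-like cells, while the Hbb-bs to Hbb-bt intervals overlapped erythroid-like cells in the wild-type-labelled library.

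Many globin UMIs lay in barcodes left out of the main comparisons. In the SCD-labelled library, 2097 barcodes had under 500 genes (median 266) and held 2.57% of its UMIs, but 42.1% of its Hbb-bs UMIs and 37.97% of its Hba-a1 UMIs. The 4 adult genes gave a median of 46.8% of their UMIs (highest 77.9%), and at least 10% in 1722 of them (82.1%, 80.4 to 83.7%). In the wild-type-labelled library, 1374 barcodes had under 500 genes (median 436). They held 3.67% of the Hbb-bs and 5.48% of the Hba-a1 UMIs, and 482 of them (35.1%, 32.6 to 37.7%) had at least 10% adult globin, against 1.71% of kept cells. β per α in these barcodes was 3.87 in the SCD-labelled library and 0.00692 in the wild-type-labelled library, and Hbb-bs per Hbb-bt was 6.98 and 1.003.

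Hba-x, the embryonic α-like gene, was held by few cells, compared with the adult genes. Within the wild-type-labelled library 4815 Hba-x UMIs were counted in kept cells, and the 1% of cells with most of them held 81.9%. With cells ranked by each gene's own count, the top 1% held 13.9% of Hba-a2, 11.0% of Hba-a1 and 34.4% of Hbb-bh1 UMIs. Hbb-bh1 is rarer, with 1000 UMIs, and a gene with fewer UMIs than that 1% of cells is held by them whole, as Hbb-y was. Within the SCD-labelled library 1445 Hba-x UMIs were counted, and the top 1% of cells held 93.6%, against 30.6% for Hba-a2. Hba-x was found in 827 and 214 kept cells, of which 187 and 70 had at least 5 UMIs and held 81.3% and 83.9% of the total. The highest count in a kept cell was 155 and 79.
Of the cells with at least 5 Hba-x UMIs, 116 of 187 and 33 of 70 were EBI-like, 24 and 30 lay in unnamed clusters, and 35 and 3 were erythroid-like. They held a median of 117 and 104 Hba-a1 UMIs. Among erythroid-like cells of the wild-type-labelled library, those with at least 5 had a median of 2669 UMIs in all, against 6103 for the whole class. Hbb-bh1, the embryonic β-like gene, was found in 13.4% and 12.9% of the cells with at least 5 Hba-x UMIs and in 4.38% and 1.77% of all kept cells. Within EBI-like cells these shares were 12.9% against 6.97%, and 15.2% against 8.58%.
Relative to Hba-a1, Hba-x in the Hemgn cluster was at 0.517 (0.457 to 0.583) and 0.120 (0.0441 to 0.262) UMIs per 1000 Hba-a1 UMIs. These were the lowest ratios above 0 among clusters with at least 20 cells and 1000 adult globin UMIs. Only 20 of 21 and 17 of 19 such clusters held any Hba-x UMI. In the wild-type-labelled library a cDC2-like cluster overlapped, at 0.865 (0.105 to 3.13). In the Xpo7 cluster the Hba-x ratio was at 3.07 (2.82 to 3.34) and 3.89 (3.16 to 4.74), and in the EBI-like cluster led by Oas1e, Gm47985 and Slfn14 at 18.5 (16.6 to 20.6) and 66.5 (41.1 to 102). The last value rests on 24 cells, and its interval does not cover the spread over them. Clusters of other kinds had higher or overlapping values, at 48.6 (41.2 to 57.05) in an unnamed cluster led by Mpo, Elane and Prtn3 of the wild-type-labelled library and at 66.2 (47.3 to 90.6) in Ly6c-high monocyte-like cells of the SCD-labelled library. Of these 712 monocyte-like cells, 2 held 41 Hba-x UMIs, with up to 35 in a cell. That value thus describes few cells, which its interval does not cover. Hbb-bh1 also differed between the erythroid-like clusters, at 14.7 and 58.2 CPM in the wild-type-labelled library and at 19.2 and 171 CPM in the SCD-labelled library, and so did Hbq1a, at 8.63 and 43.5 CPM and at 7.90 and 67.1 CPM.

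**Figure D4:**
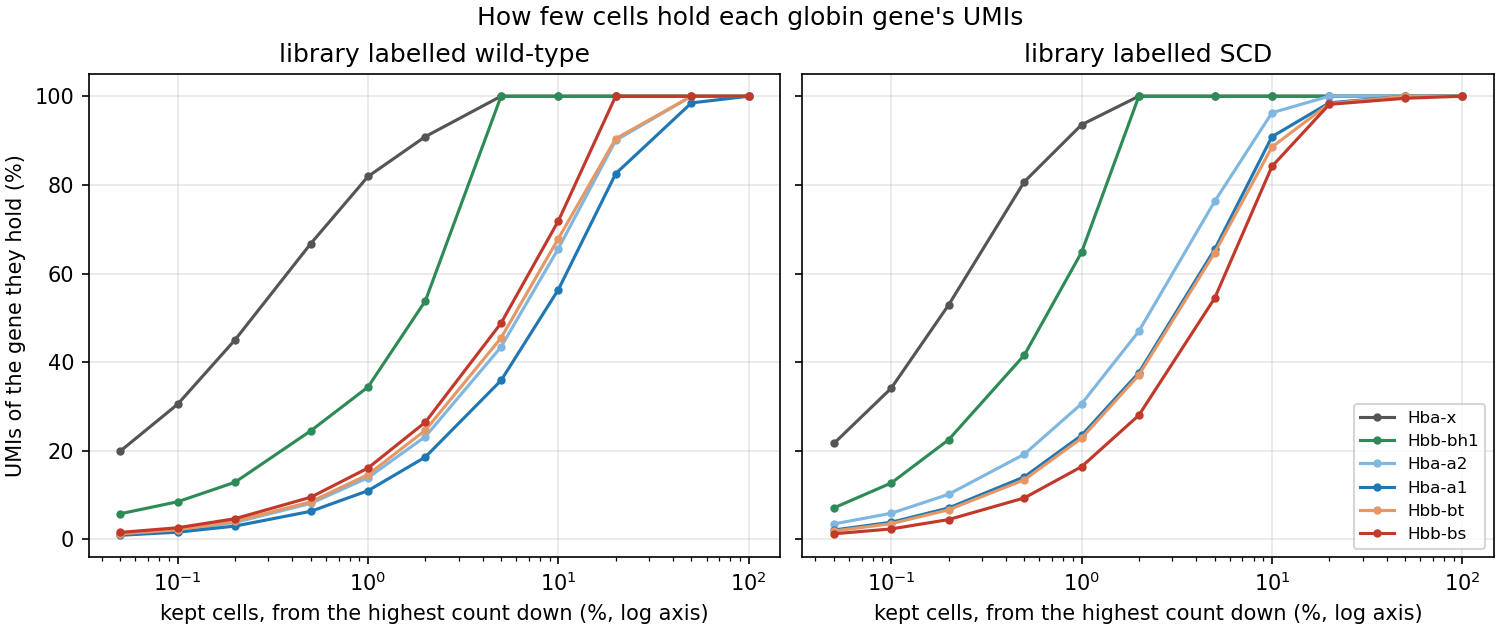
Share of a gene's UMIs (%, y axis) held by the kept cells with the most of them (%, x axis, log), for 6 globin genes in each library. The curve of Hba-x lies highest, at 81.9% and 93.6% of UMIs in the top 1% of cells, and those of the adult genes at 11.0 to 30.6%.

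The genes whose level across clusters was most like that of the adult globin genes included Alas2 and Fech. Pearson correlations of log2(CPM + 1) were taken over the clusters with at least 20 cells, 24 and 21, which share their libraries and free RNA, and no p is given. For the SCD-labelled library, Hba-a1 was near to Alas2 (r = 0.99), Slc25a37 (0.96), Tent5c (0.95) and Fech (0.95), and Hbb-bs to Alas2 (0.99), Tent5c (0.96), Ube2l6 (0.95) and Slc25a37 (0.94). In the wild-type-labelled library, Hba-a1 was near to Ube2l6 (0.98), Alas2 (0.98), Fech (0.96) and Aldh1a1 (0.96). Hbb-bs had another set there, Apol11b (0.97), Carhsp1 (0.97), Fech (0.96), Epb42 (0.96) and Gm16867 (0.95). Between Hba-a1 and Hbb-bs themselves r was 0.93 in the wild-type-labelled library and 0.99 in the SCD-labelled library.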

How the data were processed

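Per the labels and headers, the authors aligned reads and counted UMIs with Cell Ranger (4.0.0 in the submitters' notes, 3.1.0 in the matrix headers; build GRCm38.p6) and deposited raw counts per gene and barcode, 1 library per condition. Depth was 145953464 and 73986356 UMIs. The members and lists were chosen with earlier results of these data known. Cells needed 500 to 5000 genes, less than 15% of UMIs from mitochondrial genes and less than 30% from ribosomal-protein genes. They were scaled with scran 1.30.0 (R 4.3.3), and clustered jointly with scanpy 1.11.5 (2000 variable genes without globin and sex-linked genes, 30 principal components, 15 neighbours, Leiden resolution 1).

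Clusters were named from marker lists. EBI-like and RPM-like clusters had macrophage markers at a median of 4 times the B cell reference or more. In EBI-like clusters, erythroid markers were also at 2 times that reference or more. Other classes, erythroid-like among them, needed markers at 2 times the level of all other clusters or more. Each class needed at least 3 markers in 10% of cells. Scrublet doublets were left in; its threshold marked 13.9% of the SCD-labelled library and 0 of the wild-type-labelled library, where the highest-scoring 10% were taken for the alternative without doublets. Levels are CPM of summed UMIs with exact Poisson intervals. Shares have exact binomial (Clopper-Pearson) intervals, and ratios the conditional binomial interval. Genes with 100 UMIs over both groups entered 2-fold counts, with 0.5 UMIs added for the log2 ratio. On simulated counts for the erythroid-like comparison (9687 genes, 200 changed), 95.9% of intervals held the true value. With 1 library per condition, that figure does not cover the spread between mice. Named were the members, other globin genes, the listed genes and, of the 5 genes most alike across clusters, those that can be given (an item is not reported here). Mki67 and the leading genes of clusters were named after their values were seen. Alternatives changed the cell filters, doublets, clustering, choice of erythroid cells, scaling, UMI minimum and thinning. Those on cell filters and doublets also clustered the cells anew, so the cells of the erythroid-like class changed with them. The alternative with at least 200 genes had no upper limit on genes. Ahsp was not analysed here.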

Additional observations from a re-analysis of the deposited data

Results flagged for a closer look

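Globin UMIs were abundant in barcodes that the main comparisons left out. In the SCD-labelled library, the barcodes with under 500 genes held 42.1% of all Hbb-bs UMIs, and the 4 adult globin genes gave a median of 46.8% of the UMIs of such a barcode, against 3.67% and 2.98% in the wild-type-labelled library. What these barcodes are was not tested.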

How the results depend on the processing

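No paired analysis was possible because each condition has 1 library. The alternatives with each erythroid-like cluster alone or without shared barcodes were chosen after seeing the data, and without shared barcodes the log2 ratios were 8.67 (Hbb-bs) and 0.20 (Hba-a1). The Hba-a1 log2 ratio of 0.21 turned to -0.10 with each library clustered on its own, -0.18 in cells picked by marker UMIs (76 and 66 cells) and -0.0028 in the Xpo7 cluster. The cause was not tested. It was otherwise 0.14 with at least 200 genes, 0.16 without doublets, 0.25 and 0.22 at resolutions 0.5 and 2, 0.0764 as a mean over cells, 0.34 without globin in the total, 0.63 with scran size factors and 0.15 in the Hemgn cluster.

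The Hbb-bs log2 ratio kept its direction in every alternative run, at 8.62 with at least 200 genes, without mitochondrial and ribosomal limits and by marker UMIs, 8.28 without doublets, 8.43 at resolution 0.5, 8.48 clustered apart, 8.85 as a mean over cells, 8.81 without globin in the total, 9.57 with scran, and 8.31 and 9.10 in the Hemgn and Xpo7 clusters. β per α in the wild-type-labelled library was 0.0157 without doublets, 0.0156 at resolution 0.5, 0.0144 by marker UMIs, 0.0120 as a mean, and 0.0154 and 0.00934 in the 2 clusters. In the SCD-labelled library it was 2.34 without mitochondrial and ribosomal limits, 2.00, 2.11, 2.86, 2.67, 2.07 and 2.98 in the order just given, and 2.56 clustered apart.

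Hba-a1 over the B cell reference in the wild-type-labelled library was 43.7 without mitochondrial and ribosomal limits, 36.7 without doublets, 30.3 and 44.1 at resolutions 0.5 and 2, 44.8 by marker UMIs, 50.6 as a mean and 96.2 with scran. In the SCD-labelled library it was 199 without those limits, 143 and 205 at the 2 resolutions, 157 (156.9) clustered apart, 157 (157.5) by marker UMIs, 246 as a mean, 211 without globin in the total and 692 with scran. Genes at least 2-fold higher and lower numbered 493 and 965 with at least 20 UMIs. Against 143 higher and 584 lower in the report, they numbered 3719 and 809 with at least 1 UMI and 1 added, and 220 and 427 without globin in the total. The first of these turns the balance. However, 1 added UMI is a larger CPM in the SCD-labelled library, whose 336 erythroid-like cells held fewer UMIs than the 3168 of the other. Genes with few UMIs are thereby moved to the higher side, so this turn says nothing about the genes.

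Shares of cells with a UMI depended on depth. Without thinning and at 2000 UMIs, Hbb-bs was found in 59.1% and 27.4% of erythroid-like cells of the wild-type-labelled library, and in 62.5% and 45.0% of reference cells of the SCD-labelled library, where 100% of erythroid-like cells had it without thinning. Hba-a1 was found in 99.97% and 99.93% of erythroid-like cells of the wild-type-labelled library and in 100% and 100% of those of the SCD-labelled library, and in 69.3% and 62.1%, and 28.4% and 19.1%, of reference cells. Alternatives for Ahsp gave no value.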
